A study of Saccharomyces cerevisiae with 94 samples.

Results

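The transcriptome of the budding yeast Saccharomyces cerevisiae was followed through 10 min of mid S phase in the SSDDCS strain, by comparing cultures 30 min after release from G1 with the same cultures at 20 min. The comparison took every library that the labels assign to this strain and these times, which gave 8 of the 94 libraries used here, 4 at each time. Libraries were paired by replicate number, because each replicate was a single culture sampled repeatedly. The study asked how gene expression responds when most of the genome replicates early, and the present interval shows how the transcripts of such cells moved as S phase went on.

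All strains were MATa in the W303 background with the markers ade2-1, ura3-1, trp1-1, his3-11, 15 and leu2-3, 112, and carried can1-100 and rad5-535. Both strains were sml1Δ, with the deletion marked by HphNT in SSDDCS and by URA3 in the control, which is called sml1Δ here. SSDDCS held extra copies of 6 limiting replication initiation factors, placed in pairs around the divergent, galactose-inducible GAL1-10 promoter. These were Sld7 with Cdc45 at leu2 (LEU2), SLD3-A with Dbf4-A at his3 (HIS3) and Sld2 with Dpb11 at trp1 (TRP1). Cells grown in raffinose were arrested in G1 with the mating pheromone alpha factor, given galactose during the arrest, and released into galactose medium. The values are therefore from cells in galactose with the 6 factors induced at both 30 and 20 min, and the sml1Δ cultures at 30 and 20 min saw the same medium without the extra copies.

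In S phase, budding yeast switches between waves of transcription. The G1/S wave, driven by the SBF and MBF factors, makes the cyclins and enzymes that begin DNA synthesis and is shut off as S phase proceeds. Histone genes are transcribed during DNA synthesis, and forkhead factors with their coactivator Ndd1 then switch on the CLB2 cluster, whose products carry out mitosis and cytokinesis.

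The 8 libraries held between 8813573 and 15527827 reads in genes, and their 10 most abundant genes took 17.7% to 17.9% of these. The unit throughout is the normalised read count, in which the reads of a gene are divided by a size factor that corrects for library depth. Changes are log2 differences of the value plus 1, given with their standard error from limma over the 47 SSDDCS libraries. A gene was called at a Benjamini-Hochberg adjusted p under 0.01, the limit the study used. The mating type markers were read against the labels per kb of gene, over the 8 libraries. Of the a-specific genes, MFA1 and MFA2, which encode the pheromone a-factor, had medians of 1730.1 and 1595.4, AGA2, the a agglutinin subunit gene, 633.9, and STE2, the alpha-factor receptor gene, 496.0. The other 3 were lower, with 124.7 for ASG7, 93.18 for STE6, the a-factor exporter gene, and 93.15 for BAR1, which degrades alpha factor. Of the alpha-specific genes, MF(ALPHA)1 had a median of 47.4, STE3 86.45 and MF(ALPHA)2 213, but SAG1, the alpha agglutinin, had 319 and was not near 0. SAG1 and MF(ALPHA)2 thus exceeded ASG7, STE6 and BAR1, so the marker levels in these 8 libraries did not fully separate by mating type. In SSDDCS cells arrested in G1, mean counts, not per kb, were 10814.8 for BAR1, 6214.1 for STE6 and 1724.9 for ASG7. The highest SSDDCS means at any time were lower, with 662.8 for SAG1 at 25 min and 78.1 for MF(ALPHA)2 at 30 min. In such bulk RNA fewer cells of a stage and less RNA per cell cannot be told apart.

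The label of mid S phase was checked against cell cycle markers. The histone gene HTB1 had 2568 ± 411 in arrested SSDDCS cells, 16359 ± 1833 at 20 min, 20372 ± 2751 at 25 min and 18779.8 ± 1985 at 30 min (SD, n = 4, but n = 3 at 25 min), its highest mean being that at 25 min. For the G1 cyclin gene CLN2, the mean at 10 min was 8590.3 ± 542, that at 20 min 3934 ± 742 and that at 30 min 1792 ± 486. The mitotic cyclin gene CLB2 had 266 ± 32.1 at 20 min, 663 ± 93.2 at 30 min and 1752 ± 227 at 50 min. Thus the interval began after the G1/S wave had passed its height, spanned the top of the histone wave and ended while mitotic transcripts were still climbing.

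Promoter sequence, which the choice of libraries did not use, shows elements found more often among falling genes than among all genes. MBF binds the MCB element (ACGCGT) and SBF the SCB element (CGCGAAA or CACGAAA). The sequences below are the 250 bases before the start codon, read from the RefSeq R64 genome, of genes described further on, picked because they fell and hold such an element, with MCB or SCB matches on either strand in capitals, and of HOF1, which rose and holds the forkhead core GTAAACA, in capitals there. SVS1, which fell, also holds that core, left in lower case.
CDC21 (chrXV:467590-467839, minus strand): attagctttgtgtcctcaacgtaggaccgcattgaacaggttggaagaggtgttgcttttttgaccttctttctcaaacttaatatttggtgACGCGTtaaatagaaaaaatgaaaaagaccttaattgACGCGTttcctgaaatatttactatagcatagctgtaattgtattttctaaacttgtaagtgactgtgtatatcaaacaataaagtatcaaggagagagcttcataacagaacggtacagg
ASF1 (chrX:196037-196286, plus strand): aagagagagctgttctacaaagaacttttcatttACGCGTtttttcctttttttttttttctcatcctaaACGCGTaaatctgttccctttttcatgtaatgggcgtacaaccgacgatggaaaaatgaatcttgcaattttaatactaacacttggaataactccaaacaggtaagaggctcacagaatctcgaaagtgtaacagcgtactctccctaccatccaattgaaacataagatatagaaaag
PMS1 (chrXIV:473141-473390, plus strand): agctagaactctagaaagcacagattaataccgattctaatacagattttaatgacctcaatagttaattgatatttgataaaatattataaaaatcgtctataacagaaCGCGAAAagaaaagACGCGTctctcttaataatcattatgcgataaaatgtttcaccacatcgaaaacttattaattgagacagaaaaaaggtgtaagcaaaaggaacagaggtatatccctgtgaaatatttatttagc
TUB4 (chrXII:566282-566531, minus strand): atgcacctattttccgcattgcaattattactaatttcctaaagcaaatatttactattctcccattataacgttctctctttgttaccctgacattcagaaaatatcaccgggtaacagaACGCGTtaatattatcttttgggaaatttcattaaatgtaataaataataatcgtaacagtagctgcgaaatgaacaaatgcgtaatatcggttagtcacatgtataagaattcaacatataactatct
SVS1 (chrXVI:242701-242950, minus strand): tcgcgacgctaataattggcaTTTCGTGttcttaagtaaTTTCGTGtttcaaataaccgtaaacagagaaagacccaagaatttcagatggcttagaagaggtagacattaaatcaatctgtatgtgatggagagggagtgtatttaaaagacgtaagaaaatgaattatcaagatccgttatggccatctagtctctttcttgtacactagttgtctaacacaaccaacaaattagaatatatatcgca
HOF1 (chrXIII:335048-335297, plus strand): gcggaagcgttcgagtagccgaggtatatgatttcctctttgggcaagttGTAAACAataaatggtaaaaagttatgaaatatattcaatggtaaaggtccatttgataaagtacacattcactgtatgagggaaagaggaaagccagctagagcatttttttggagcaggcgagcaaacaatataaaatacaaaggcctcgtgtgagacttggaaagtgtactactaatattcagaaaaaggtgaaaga
CDC21 and ASF1 each hold 2 copies of the MCB, PMS1 an MCB and an SCB, TUB4 an MCB, and SVS1 2 copies of the SCB. In CDC21 the matches begin 158 and 121 bases before the start codon.

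Between 30 and 20 min, 1630 of 6417 genes counted were called (25.4%), 797 higher (12.4%) and 833 lower (13.0%) at 30 min. The changes were moderate: the median was 0.41 among higher genes and −0.39 among lower genes, against 0.02 over all genes tested, and 78 called genes moved at least 2-fold, 46 higher and 32 lower. Of the called genes, 1346 had the same sign in 4 of 4 cultures and no overlap between the libraries of the times, while 29.0% of all tested genes showed no overlap. For 1555 of the called genes (95.4%) the mean at 25 min lay between those at 20 and 30 min, against 59.7% of all genes tested. Of the higher genes, 563 had a still higher mean at 35 min, and 595 of the lower genes a still lower one. The total was 1023 without replicate 1 and 979 without replicate 3.
When libraries were scaled to equal totals instead, the split of calls was 459 higher to 1239 lower, or 27.0% higher, against 48.9% as scaled by the authors. The sum of normalised counts differed between the times, with 10.9 to 11.3 M at 30 min, against 10.1 to 10.7 M at 20 min, and the equal-totals median of all genes was −0.06.

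**Figure D1:**
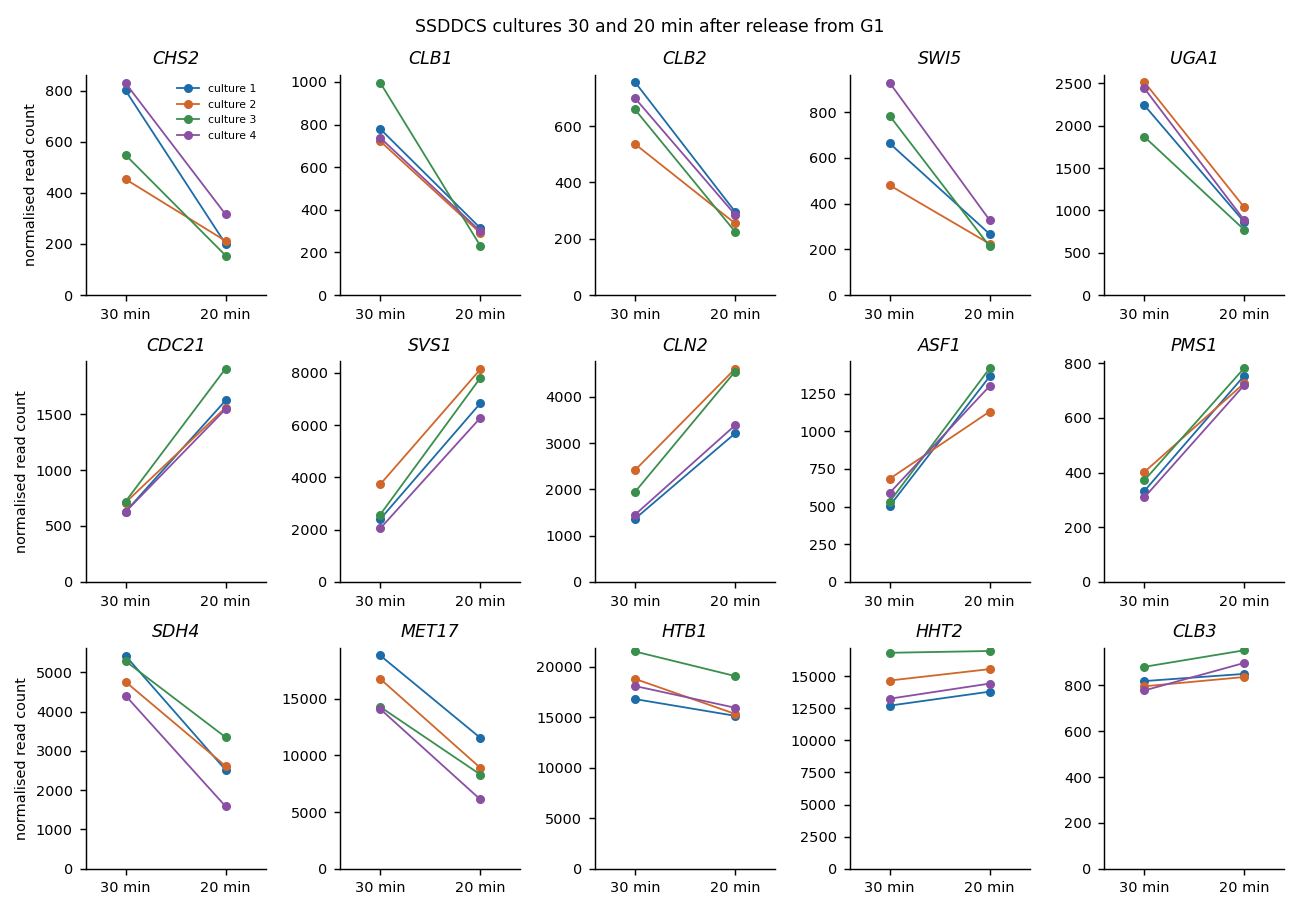
Normalised read counts (y axes, from 0) of 15 genes in the 4 SSDDCS cultures at 30 and 20 min, with a line joining the libraries of a culture. The 5 genes of the upper row, SDH4 and MET17 lie higher at 30 min in all 4 cultures, the 5 genes of the middle row lie lower, and HTB1, HHT2 and CLB3 were not called.

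Genes of the mitotic programme had the highest list median. Among the 24 genes of the CLB2 cluster, 18 were higher and 1 lower at 30 min, with a median of 0.68 and medians of 0.54 to 0.88 in single cultures. The cluster's leading gene, CHS2, encodes the chitin synthase that lays down the primary septum, and it had 800.4, 453, 548 and 829 at 30 min, against 199.9, 212, 154 and 315 at 20 min. All 4 libraries at 30 min lay above all 4 at 20 min, and the change was 1.58 ± 0.19, adjusted p = 4.89e-08. CLB1, a mitotic cyclin gene, had 779.5, 722, 997 and 738 at 30 min, against 314, 291, 231 and 299.7 at 20 min, with the high value at 30 min in culture 3 (1.504 ± 0.17, adjusted p = 1.09e-08). CLB2, its paralogue and the main mitotic cyclin gene, had 756, 536, 659 and 699 at 30 min, against 296, 255, 225 and 286 at 20 min. Again the times did not overlap, and the change was 1.31 ± 0.12, adjusted p = 3.74e-10.
SWI5, whose product activates genes at the next M/G1 boundary, had 663, 480.0, 784 and 928 at 30 min, against 267, 224, 212 and 327 at 20 min (1.45 ± 0.20, adjusted p = 4.80e-07). HOF1, needed for cytokinesis, was low in every library, with 98.4, 108, 110.0 and 178 at 30 min, against 15.8, 48.9, 41.3 and 88.3 at 20 min. Its change was 1.52 ± 0.34, adjusted p = 0.00053, and culture 4 was the highest at both times. HST3 encodes a deacetylase of histone H3 lysine 56, a mark of new histones, and had 509, 333, 308 and 464 at 30 min, against 170.2, 148, 131 and 201 at 20 min (1.29 ± 0.13, adjusted p = 1.18e-09). BUD4, a bud site landmark gene, and CDC5, the polo kinase gene, rose by 1.25 and 0.86 on the log2 scale. The only member called lower was BUD9, another bud site gene, with −0.33 ± 0.08, adjusted p = 0.00139. Calls were lost for HOF1 without replicate 3 (adjusted p = 0.0128) and for BUD9 without replicate 1 or 2 (0.0215 and 0.018).

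The other regulators of late S and G2 phase moved less. Of 10 genes in that list, 4 were higher, SWI5, YHP1 and NDD1 among them, and 1, HCM1, was lower. NDD1 is the coactivator of the CLB2 cluster. The forkhead gene HCM1, itself a G1/S target, had 1107, 1326, 869.5 and 940.4 at 30 min, against 1464, 1455, 1252 and 1273 at 20 min, a change of −0.37 (adjusted p = 0.00359) with culture 2 highest at 30 min, and its call was lost without replicate 1 or 3 (adjusted p of 0.0244 and 0.0524). CLB3 and CLB4, cyclin genes of S and G2 phase, were not called, with changes of −0.11 and −0.19. Of 45 spindle and kinetochore genes, 5 were higher (11.1%, against 12.4% of all genes) and 9 lower (20.0%, against 13.0%). Under equal totals 1 was higher and 11 were lower. ASE1, a spindle midzone protein gene, led the rises with 0.45. It was not called without replicate 2 (adjusted p = 0.0159), under equal totals (0.0115) or in the fit of both strains (0.0244). TUB4, the gamma-tubulin gene whose promoter is shown above, led the falls. TUB4 had 289, 271, 313 and 279.9 at 30 min, against 599, 523, 633 and 581 at 20 min, and the libraries of each time lay close together (−1.01 ± 0.10, adjusted p = 1.38e-09).

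Most called genes of the G1/S wave were lower. Among its 12 regulators and cyclins 7 were lower and 1 higher, and PCL1, PCL2, PLM2 and YOX1 were not called, with a median of −0.61 (−0.73 to −0.33 in single cultures). CLN2 had 1362, 2412, 1942 and 1451 at 30 min, against 3208, 4603, 4544 and 3382 at 20 min (−1.15 ± 0.18, adjusted p = 4.23e-06). CLB6, an S phase cyclin gene, had 126, 170.2, 100.4 and 134 at 30 min, against 279, 257, 318 and 244 at 20 min (−1.06 ± 0.20, adjusted p = 5.23e-05), and CLB5, its partner, had 426, 465, 475 and 430.2 at 30 min, against 819, 839, 1019 and 734 at 20 min (−0.92 ± 0.11, adjusted p = 5.91e-08). In each the libraries at 30 min were below every library at 20 min. CLN1 fell less and varied more: it had 1521, 1887, 1755 and 965 at 30 min, against 2611, 2789.9, 2968 and 1811 at 20 min, so that culture 4 at 20 min was below culture 2 at 30 min (−0.75 ± 0.19, adjusted p = 0.0023). Its call was lost without any 1 of replicates 1, 2 or 3 (adjusted p of 0.0146 to 0.0173). The riser was NRM1, the corepressor that ends MBF transcription, with 1209.5, 980.5, 1168 and 1065 at 30 min, against 808, 679, 748 and 635 at 20 min (0.62 ± 0.19, adjusted p = 0.00973), although it lost its call under 7 of the alternative settings tried, among them those without replicate 1, 2 or 3 (adjusted p of 0.029 to 0.0567).

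Enzymes of DNA synthesis fell in all 4 cultures by similar amounts. Of 37 genes for polymerases, replication proteins and nucleotide supply, 30 were lower and 1 higher, with a median of −0.58 and single-culture medians within −0.57 to −0.53. CDC21, thymidylate synthase, had 628, 709, 719 and 626 at 30 min, against 1623, 1559, 1908 and 1546 at 20 min (−1.30 ± 0.18, adjusted p = 6.18e-07). The 4 values at 30 min all lay well below those at 20 min. RNR1, the large subunit of ribonucleotide reductase, had 4160.2, 4414, 3272 and 3536 at 30 min, against 10268, 8364, 9996 and 7610.0 at 20 min (−1.24 ± 0.25, adjusted p = 0.000219), and CDC9, DNA ligase, had 542, 552, 574 and 514 at 30 min, against 1266, 1190.3, 1399 and 1251 at 20 min (−1.23 ± 0.11, adjusted p = 1.24e-10). The riser was RNR4, a small subunit of the same reductase as RNR1, with 7084, 7382, 5570.3 and 6824 at 30 min, against 5490.4, 4973, 4492 and 4716 at 20 min, so the subunit genes moved in opposite directions (0.45 ± 0.09, adjusted p = 0.000202). Without replicate 2 RNR4 was not called (adjusted p = 0.0111).

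Repair and cohesion genes followed. Of 16 genes of mismatch and recombination repair, 11 were lower, with a median of −0.64. PMS1, a mismatch repair gene, had 332, 402, 372 and 309 at 30 min, against 755, 728, 783 and 721 at 20 min (−1.08 ± 0.12, adjusted p = 1.12e-08). Its times did not overlap. MSH6, the mismatch recognition gene, fell by 1.04 on the log2 scale. Of 9 cohesin genes 7 were lower, with a median of −0.78, the lowest of the lists, and none was higher. The cohesin subunit gene MCD1, cut at anaphase, had 1424, 1869, 1256 and 1288 at 30 min, against 3039.8, 2976, 2863 and 2652 at 20 min (−0.998 ± 0.29, adjusted p = 0.00706). The call of MCD1 was lost under 4 settings, among them those without replicate 2 or 3 (adjusted p of 0.0253 and 0.0863).

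Histone genes themselves were not called: 0 of 8 core histone genes passed by limma, 0 by edgeR and 0 by DESeq2, and 0 had an unadjusted p under 0.05 by any of these. HTB1 had 16780.3, 18779, 21487 and 18073 at 30 min, against 15128, 15318, 19061 and 15927 at 20 min, and its libraries overlapped between the times, with a change of 0.20. The other 7 genes changed by −0.17 (HHT1) to 0.18 (HTA2), and the median of all 8 was −0.08, or −0.16 under equal totals and −0.18 under quantile normalization. HHT1 and HHT2 share some sequence, with 87.85% of their 50-base windows found once in the genome, and 78.7% for HHF1 and HHF2, so the values of such pairs are less certain. Their chaperones and regulators did move: of 20 genes 11 were lower and 2 higher. ASF1, which hands histones H3 and H4 to the assembly machinery, had 504, 685, 532 and 590.2 at 30 min, against 1364, 1131, 1419 and 1301 at 20 min (−1.18 ± 0.12, adjusted p = 1.54e-09). CAC2, a subunit of the chromatin assembly factor CAF-1, had 553, 550.4, 467 and 505 at 30 min, against 1085, 994, 1291 and 1019.6 at 20 min (−1.07 ± 0.09, adjusted p = 9.88e-11). Neither gene overlapped between the times. HTZ1, the H2A variant gene, rose by 0.32, a call lost without replicate 1 or 3 (adjusted p of 0.0112 and 0.0179). The HTZ1 call was also lost under equal totals (adjusted p = 0.0236) and in the fit of both strains (0.081).

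**Figure D2:**
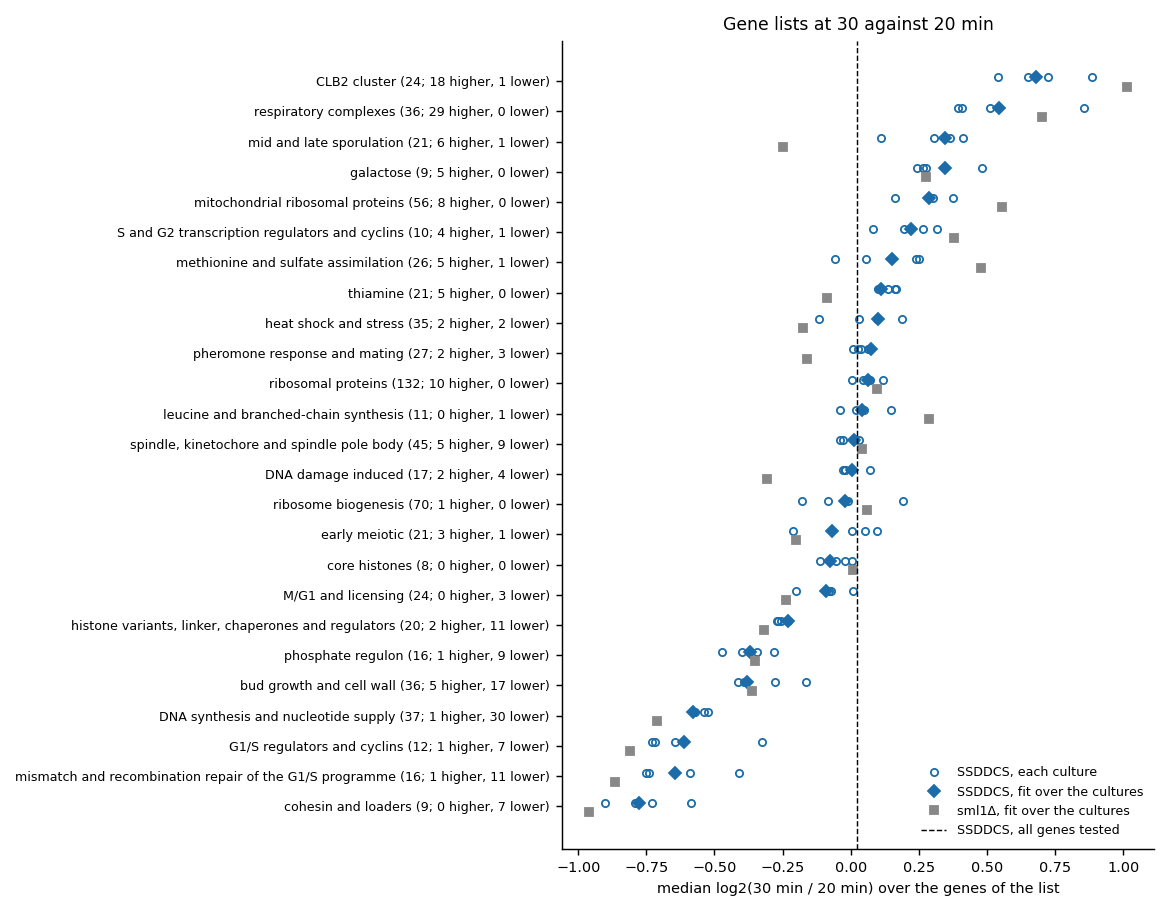
Median log2 change at 30 against 20 min (x axis) for 25 gene lists, with the number of genes tested and of those called in SSDDCS beside each name. Diamonds are the SSDDCS fit, open circles single SSDDCS cultures, squares the sml1Δ fit, and the dashed line is the SSDDCS median of all genes (0.02). The CLB2 cluster and respiratory complexes lie furthest right, at 0.68 and 0.54, and cohesin furthest left, at −0.78.

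Outside the cell cycle, respiration had the highest list median. Of 36 genes for respiratory complexes and ATP synthase, 29 were higher and none lower, with a median of 0.54. SDH4, a subunit of succinate dehydrogenase, had 5424, 4762, 5288 and 4410.1 at 30 min, against 2517, 2616, 3349 and 1589 at 20 min (1.03 ± 0.16, adjusted p = 3.89e-06). Culture 4 was the lowest at both times, and every library at 30 min exceeded every one at 20 min. COR1, a core subunit of complex III, rose by 0.71. Mitochondrial ribosomal protein genes had a median of 0.29, with 8 of 56 higher (14.3%, against 12.4% of all genes), or 2 under equal totals, while 10 of 132 cytosolic ribosomal protein genes were higher and their median was 0.06. The sign of that median depended on scaling, as the median was −0.02 under equal totals and −0.06 under quantile normalization, where 10 were called lower and none higher. Of 70 ribosome biogenesis genes only NOG2, a GTPase gene for large subunit assembly, was called (0.40), and not without any 1 of replicates 1, 2 or 3 (adjusted p of 0.0134 to 0.0381). Nor was NOG2 called under equal totals or quantile normalization (adjusted p of 0.031 and 0.013).

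Of the 9 galactose genes, 5 were higher and none lower. GAL10, whose product interconverts galactose and glucose forms, had 45813, 44556, 43686 and 46554 at 30 min, against 31086, 33103, 29755 and 29684 at 20 min (0.55 ± 0.08, adjusted p = 2.85e-06), with no overlap between the times. Of the 16 phosphate genes, 9 were lower and 1 higher, with CTF19, a kinetochore gene that the list also holds, among the 9. PHO5, the secreted acid phosphatase, had 687, 958, 789 and 879 at 30 min, against 1479.6, 2127, 3123 and 1897 at 20 min (−1.34 ± 0.20, adjusted p = 3.08e-06), with culture 3 the highest at 20 min. PHO8, the vacuolar phosphatase, was the riser (0.32, adjusted p = 0.00318), a call lost without replicate 1 or 2 (adjusted p of 0.0391 and 0.0556). The PHO8 call was also lost under equal totals (adjusted p = 0.0103) and with no replicate block (0.0306). In methionine synthesis 5 of 26 genes were higher (19.2%, against 12.4% of all genes) and 1 lower (3.85%, against 13.0%). The list median was 0.15, or 0.07 under equal totals, where 3 were higher and 2 lower. In sml1Δ 9 were higher and 1 lower, with a median of 0.48, and the strain difference was called for 0 of these genes. MET17, which fixes sulfide into homocysteine, had 18798, 16735, 14264 and 14082 at 30 min, against 11534, 8894, 8305 and 6108 at 20 min (0.90 ± 0.26, adjusted p = 0.00553). Culture 1 was highest at both times and culture 4 lowest, and the groups did not overlap. MET17 lost its call under 6 settings, among them the fit of both strains (adjusted p = 0.0714) and those without replicate 1, 2 or 3 (0.011 to 0.0471). MET8, for the sirohaem of sulfite reductase, fell by 0.6 on the log2 scale. Its call was lost without replicate 1 or 2 (adjusted p of 0.05 and 0.0232) and in the fit of both strains (0.0143).

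Of 36 cell wall and bud genes 17 were lower and 5 higher, and 14 were not called, with a median of −0.38. SVS1, a cell wall protein gene with a pair of SCB matches, had the largest fall of all genes counted, with 2401, 3731, 2575 and 2044 at 30 min, against 6830.2, 8129.9, 7801 and 6273 at 20 min (−1.46 ± 0.16, adjusted p = 1.49e-08). Culture 2 was highest at both times. TIP1, a cell wall mannoprotein gene, had 568, 951, 479.6 and 779 at 30 min, against 1610.5, 2299.9, 1582 and 1274 at 20 min (−1.30 ± 0.24, adjusted p = 4.07e-05). GAS3, a glucan-remodelling homologue, rose by 0.73. PIR3, another wall protein gene, had 214, 529, 425 and 569.6 at 30 min, against 712, 1247, 1498 and 862 at 20 min. It fell by 1.34 on the log2 scale, but its call was lost without any 1 of replicates 1, 2 or 3 (adjusted p of 0.0238 to 0.0671). In the pheromone list 3 of 27 genes were lower (11.1%, against 13.0% of all genes) and 2 higher (7.41%, against 12.4%). The other 22 were not called, and the list median was 0.08. MFA1, for the a-factor pheromone, had 106, 168, 131 and 158 at 30 min, against 216, 383, 490.0 and 366 at 20 min (−1.33 ± 0.25, adjusted p = 5.24e-05). PRM5, a pheromone-regulated gene, fell by 1.27 on the log2 scale.

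Other genes with large changes were not in these groups. UGA1, which breaks down the amino acid GABA, had 2243, 2518, 1870.3 and 2443 at 30 min, against 861, 1035, 769 and 883 at 20 min (1.35 ± 0.13, adjusted p = 3.74e-10). ARO9, an aromatic aminotransferase, had 1645, 1097, 949.6 and 889.5 at 30 min, against 559.6, 456, 358 and 359 at 20 min (1.38 ± 0.21, adjusted p = 3.86e-06), and YHR137C-A, its neighbour by systematic name, moved with it (1.34). Whether reads were counted by strand is not given in the sources used here, so the values of such neighbours can hold each other's reads. The same holds for YOR073W-A, by name beside CDC21 (−1.35), and YDL163W, beside CDC9 (−1.27). PHO92, a reader of methylated mRNA, had the largest rise of the called genes, a 3.68-fold one from low values: 95.3, 139.5, 81.2 and 208 at 30 min, against 25.5, 39.8, 23.6 and 46.9 at 20 min (1.88 ± 0.22, adjusted p = 3.34e-08). Other large falls were in YBR071W (−1.44), ARI1, an aldehyde reductase gene (−1.31), and SRL3 (−1.24).

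A few sporulation and meiotic genes rose, at low levels. Of 21 genes of mid and late sporulation 6 were higher and 1 lower, with a median of 0.34, and of 21 early meiotic genes 3 were higher and 1 lower, with a median of −0.07. The early meiotic share called higher, 14.3%, was near the 12.4% of all genes. Under equal totals 3 sporulation genes were higher and 1 lower, and 2 early meiotic genes were higher and 3 lower. SPO20, a membrane fusion gene of spore formation, had 264, 180.5, 256 and 262 at 30 min, against 86.1, 109, 95.4 and 78.2 at 20 min (1.37 ± 0.18, adjusted p = 1.98e-07). Culture 2 stood apart at 30 min with the lowest value, but it too lay above every library at 20 min. HOP1, a protein gene of the meiotic chromosome axis, had 280.5, 287, 232 and 308 at 30 min, against 172, 202, 174 and 198 at 20 min (0.56 ± 0.10, adjusted p = 1.47e-05). GAS2, a spore wall gene, changed by −0.86 and SPO16, a crossover gene, by −0.87, and both were called lower. In the list of 17 genes induced by DNA damage, 2 were higher (11.8%, against 12.4% of all genes) and 4 lower (23.5%, against 13.0%). HUG1, a checkpoint-induced inhibitor of ribonucleotide reductase, had 386, 271, 218 and 383 at 30 min, against 159.9, 138, 91.5 and 188 at 20 min (1.13 ± 0.17, adjusted p = 1.79e-06), with all 4 cultures up, while DUN1, the kinase gene upstream of it, fell by 0.75 on the log2 scale. In sml1Δ HUG1 also rose, from a mean of 17.0 to 32.8 (0.99, adjusted p = 0.000704). The difference of changes between the strains was not called (0.14 ± 0.34, adjusted p = 0.882).
Thiamine genes had 5 of 21 higher (23.8%, against 12.4% of all genes) and none lower. THI12, for the thiamine pyrimidine ring, had 699, 766, 497 and 875 at 30 min, against 291, 299, 202 and 320.0 at 20 min (1.34 ± 0.19, adjusted p = 1.26e-06). It belongs to a family of near-identical copies, with 29.4% of its 50-base windows found once in the genome, and THI5, THI11 and THI13 of that family were also called, so the gain cannot be placed on a single copy. The 5 calls were these copies and THI7, so the count of the list can hold the same reads more than once.

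Lists for the end of the cycle and for other pathways held no larger share of calls than all genes. Of 24 genes of M/G1 phase and origin licensing 3 were lower (12.5%, against 13.0% of all genes) and none higher. The 3 were PIR3, MCM2, a helicase subunit gene, and TAH11, which loads that helicase. Of 35 heat shock and stress genes SOD2, the mitochondrial superoxide dismutase gene, and ALD3 were higher, and the chaperone genes STI1 and SSE1 were lower. Of 11 leucine and branched-chain genes only BAT2, a transaminase gene, was called, and it was lower, but not without replicate 1, 3 or 4 (adjusted p of 0.0113 to 0.0796). The calls of SOD2 (without replicate 1 or 2) and STI1 (without replicate 3 or 4) were also lost, at adjusted p of 0.0108 to 0.0253. The medians of these lists were −0.09, 0.10 and 0.04. Both pheromone genes called higher were KAR5, a nuclear fusion gene, and SST2, which dampens the pheromone signal. KAR5 lost its call under 9 settings, without any 1 replicate included (adjusted p of 0.0117 to 0.0668).

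Across promoters, the elements followed the direction of change. Of the 785 lower genes with a position, 12.6% held an MCB in the window of 250 bases before to 50 after the start codon, against 3.04% of all 5818 promoters and 1.08% of those of the 744 higher genes. Read the other way, 99 of the 177 genes with an MCB were lower (55.9%) and 8 higher, with a median change of −0.32. The SCB was in 15.2% of promoters of lower genes, 6.32% of those of higher genes and 7.84% of all. The forkhead core was in 9.68% of promoters of higher genes, 4.84% of those of lower genes and 6.57% of all. The Met4/Cbf1 core CACGTGA stood at 2.42% and 2.29% in promoters of higher and lower genes, near the 2.10% of all. MCB and SCB matches shared bases in 2 promoters. These are matches of letters, and CLN2 held neither an MCB nor an SCB in its window, nor CLB2, CHS2, CLB1 or SWI5 the forkhead core.

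**Figure D3:**
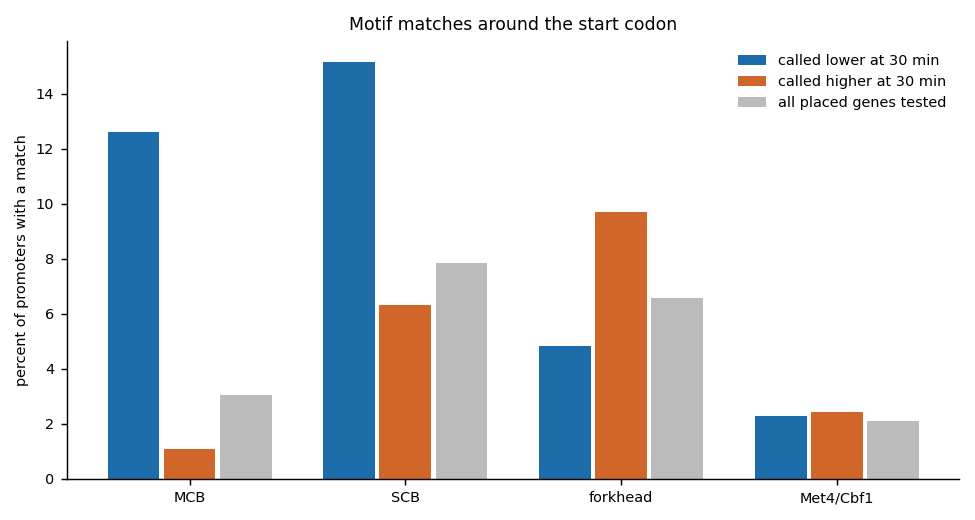
Percent of promoters (y axis, from 0) with at least 1 match to each element on either strand, for genes lower at 30 min, genes higher at 30 min and all placed genes tested. The MCB bar of lower genes (12.6%) stands at about 4 times that of all genes (3.04%).

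By position, genes within 20 kb of a chromosome end were called lower in 18.7% of 203 cases and higher in 8.37%, against 13.5% and 12.8% of all placed genes. Within 10 kb of a centromere, 16.6% of 175 genes were higher and 6.29% lower. The median changes of these groups were 0.00 and 0.05.

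The same interval in sml1Δ gave a comparison without the extra factors. In a fit over both strains, 1446 genes were called in SSDDCS and 1781 in sml1Δ, and 834 were called in both in the same direction, which is 57.7% of the SSDDCS list and 46.8% of the sml1Δ list. A further 12 were called in opposite directions. The change itself differed between the strains for 121 of 6404 genes, 92 of them more positive in SSDDCS (1.44%) and 29 more negative (0.453%). At an unadjusted p under 0.05 there were 1249. The sml1Δ cultures were less alike: replicates 1 and 4 resembled each other, as did 2 and 3, and 50 genes differed when only sml1Δ replicates 1 and 4 were used and 63 with only 2 and 3. Leaving out 1 culture gave 52, 62, 77 and 57 genes without SSDDCS replicates 1, 2, 3 and 4, and 60 and 73 without sml1Δ replicates 2 and 4.
The CLB2 cluster had a smaller median change in SSDDCS, but none of its genes passed this test. The CLB2 cluster had a median change of 0.68 in SSDDCS and 1.02 in sml1Δ, and the difference was negative for 22 of its 24 genes with 0 called. In sml1Δ, CLB2 had 1284, 734, 426 and 1173 at 30 min, against 238, 193, 136 and 248 at 20 min, a wide spread at 30 min, and the difference was −0.74 ± 0.26, adjusted p = 0.0825. Respiratory complexes had medians of 0.54 in SSDDCS and 0.70 in sml1Δ, with 35 of 36 differences negative and 0 called. DNA synthesis genes had medians of −0.58 in SSDDCS and −0.71 in sml1Δ, with 0 called.

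**Figure D4:**
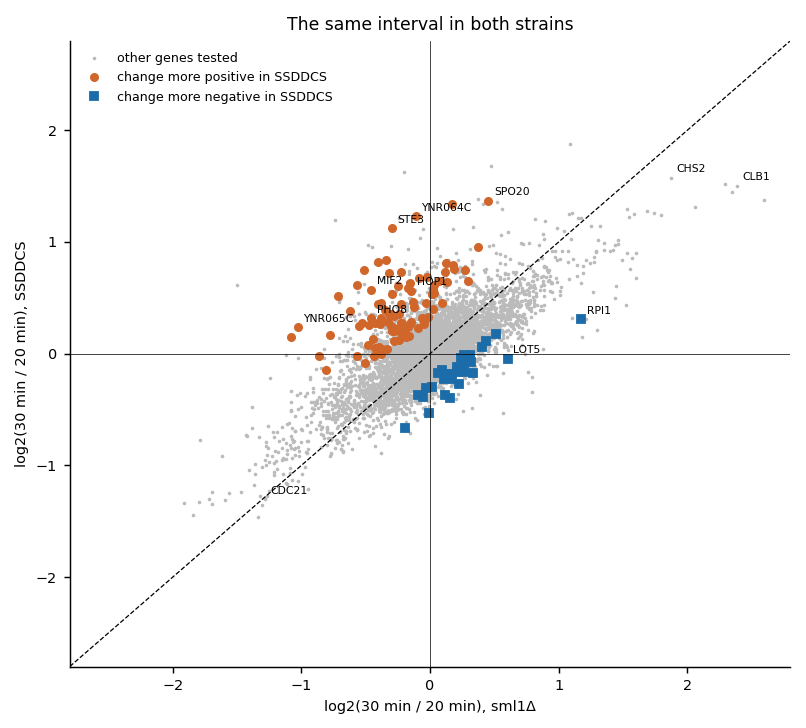
Log2 change at 30 against 20 min in SSDDCS (y axis) against that in sml1Δ (x axis), 1 point per gene, with equal change on the dashed line. By selection, the 92 genes with a more positive change in SSDDCS lie above the line. The 29 with a more negative change lie below it. Of the 92, 3 were called higher in sml1Δ, a low count that the selection favours.

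Of the 92 genes, 60 were called higher and none lower in the fit of SSDDCS alone. In the fit over both strains, 42 were called lower in sml1Δ. The 92 were picked for a more positive change in SSDDCS, which by itself favours this pattern. STE3, the a-factor receptor gene of alpha cells, had 194, 155, 137 and 252 at 30 min, against 97.2, 79.6, 54.1 and 108 at 20 min in SSDDCS. In sml1Δ it had 30.8, 23.5, 26.7 and 26.9 at 30 min, against 32.7, 26.2, 37.4 and 37.9 at 20 min. Every SSDDCS library at 30 min exceeded every one at 20 min, and the sml1Δ values stayed between 23.5 and 37.9. The difference of changes was 1.42 ± 0.28, adjusted p = 0.000584, the largest. Its mean in SSDDCS was 31.7 ± 5.78 at 10 min, 184 ± 51.0 at 30 min and 57.0 ± 14.2 at 60 min. YNR064C, an epoxide hydrolase gene, had 562, 666, 362 and 658 at 30 min, against 274, 252, 158 and 264 at 20 min in SSDDCS. Its sml1Δ libraries had 85.5, 60.8, 62.3 and 55.0 at 30 min, against 89.4, 59.1, 64.5 and 71.8 at 20 min (1.34 ± 0.25, adjusted p = 0.000311). Its neighbour YNR065C, a sortilin homologue, showed the other pattern, with no call in SSDDCS (1327 ± 249 at 30 min and 1111 ± 40.0 at 20 min, SD, n = 4) and a fall in sml1Δ (471 ± 74.5 at 30 min and 963 ± 154 at 20 min). Both lie on chromosome XIV between 749136 and 753700. FMP45, an eisosome gene, and RRT1 differed by 1.26 and 1.23. The rise of FMP45 in SSDDCS was not called without replicate 2 (adjusted p = 0.0184).
MIF2, the yeast CENP-C gene at the centromere, had 976, 1043, 947 and 1092 at 30 min, against 722, 704, 721 and 585 at 20 min in SSDDCS. In sml1Δ it had 528, 538, 483 and 450.1 at 30 min, against 717, 687, 687 and 647 at 20 min, so it rose in SSDDCS and fell in sml1Δ (1.03 ± 0.20, adjusted p = 0.000463). It was named after its values were seen. HOP1 differed by 0.71 ± 0.15, adjusted p = 0.00129, and its sml1Δ means were 126 ± 22.6 at 30 min and 139 ± 21.3 at 20 min (SD, n = 4). PHO8 fell in sml1Δ and rose in SSDDCS (0.77 ± 0.13, adjusted p = 7.66e-05), and SPO20 differed by 0.91. Of the 203 genes near a chromosome end 8 were among those more positive and 0 among those more negative, against 91 and 28 of all 5818 placed genes. The median change of the 203 genes was 0.00 in SSDDCS and −0.27 in sml1Δ, against 0.02 and 0.01 over all placed genes.
Among the 29, RPI1, a regulator linked to the cell wall, had 189, 196, 207 and 253 at 30 min, against 173, 172, 143 and 195 at 20 min in SSDDCS. In sml1Δ it had 205, 143, 166 and 168 at 30 min, against 82.4, 61.0, 77.0 and 78.9 at 20 min (−0.87 ± 0.21, adjusted p = 0.00557). It was higher in SSDDCS than in sml1Δ at 20 min, and the strains overlapped at 30 min. LOT5 (−0.65), SNG1 (−0.55), SOL2 (−0.52) and COQ9, a coenzyme Q gene (−0.51), followed, and SNG1 and SOL2 fell in SSDDCS with no call in sml1Δ. The fall of SNG1 was not called without SSDDCS replicate 1 (adjusted p = 0.0151).

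**Figure D5:**
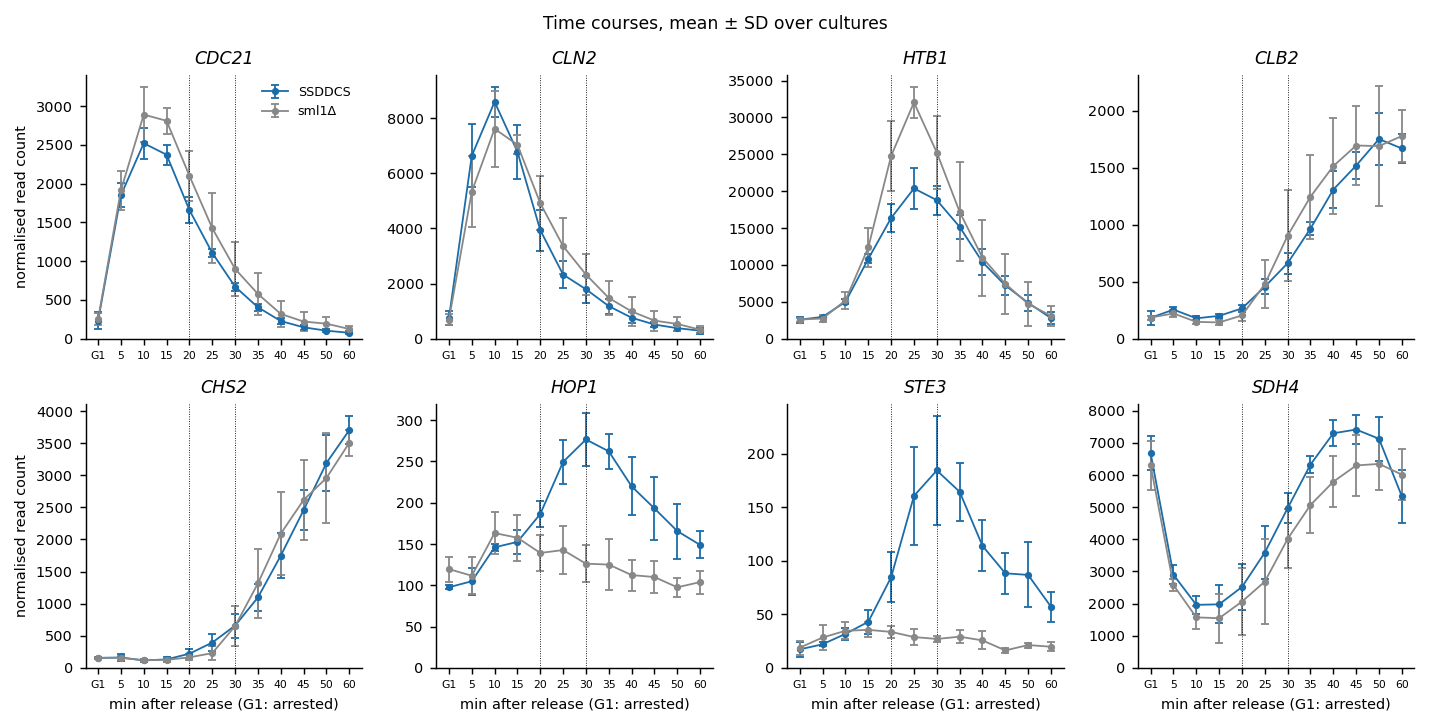
Mean normalised read count with SD (y axis) of 8 genes over 12 time points (x axis, G1 to 60 min) in SSDDCS and sml1Δ, with dotted lines at 20 and 30 min. CDC21 and CLN2 are past their height in the interval, HTB1 is at its height, CLB2, CHS2 and SDH4 climb, and HOP1 and STE3 reach their highest SSDDCS mean at 30 min, 277 and 184.

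Among the induced factors SLD7 rose and the other 5 were not called. All 6 were above sml1Δ at 30 min, by 10.3 (SLD3) to 46.2 (DPB11) times, against 7.68 to 32.6 times at 20 min, and the lowest SSDDCS library exceeded the highest sml1Δ library for each. These values sum the own copy and the extra copy. DPB11 had 20076, 21643, 20898 and 22269.7 at 30 min, against 20845, 22490.1, 20992 and 20896 at 20 min (−0.01 ± 0.09, adjusted p = 0.966). SLD7 had 2947, 3029.8, 1836 and 3313 at 30 min, against 1944, 2260.2, 1341 and 2375 at 20 min (0.49 ± 0.07, adjusted p = 7.29e-07), with culture 3 lowest at both times. SLD2, SLD3, DBF4 and CDC45 changed by 0.03, 0.39, 0.23 and 0.16. The difference from sml1Δ was called for CDC45 (1.16), SLD2 (1.05), DPB11 (0.51) and DBF4 (0.45). In sml1Δ, where only the own copies are read, these changed by −1.003, −1.01, −0.51 and −0.22.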

How the data were processed

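RNA from 94 libraries of both strains, sampled at G1 and 11 times after release, was sequenced. The labels name a TruSeq Nano kit, cutadapt and TopHat2 version 2.0.6 with the sacCer3 build, and the study's methods name another TruSeq kit and bowtie2, so which steps made the table is not settled. The values deposited by the authors are a normalised count signal, the reads in each of 6444 genes divided by a DESeq2 size factor per library. The table holds no value of 0, and whether genes were filtered is not given in the sources used here. How reads matching several genes were treated is not given in the sources used here. 2 columns matched no sample and were not used. sml1 itself and some other genes are not reported here.

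Whole reads were recovered from 100.0% of values (within 0.0001 reads), and library totals come from these. The test was limma 3.58.1 in R 4.3.3 on log2(value + 1) over 47 SSDDCS libraries, with 12 time means and a culture block, for genes with a mean of at least 10, with Benjamini-Hochberg adjustment over all genes fitted. Fold changes on this scale understate the change of low genes. The 6 induced genes and the marker genes were left out of counts. The difference between strains was tested over all 94 libraries with 8 culture blocks. The script was tested on simulated data.

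Same-numbered libraries came from the same culture per the study's methods. Their deviations from the group means correlated at 0.487 to 0.582, against −0.344 to −0.059 for other pairings. The replicates of a group differed by more than sampling noise, and all are separate cultures. Alternatives were edgeR 4.0.16 and DESeq2 1.42.0 on the recovered reads, equal totals, quantile normalization, other pseudocounts, no filter, the libraries of both times alone, both strains in a single fit, no block, and leaving out each replicate.

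The gene lists and the libraries compared were chosen with earlier results of these data known. Named genes are the 12 largest rises and 12 largest falls with a mean of 50 or more and no overlap. Also named are the 5 largest differences between strains in each direction among genes past the limit for that difference. The rest are the histone and cyclin genes, the induced genes, and the leading called genes of each list. BUD4, CAC2, CDC5, CDC9, COR1, CTF19, MIF2, MSH6, NDD1, RNR1, YHP1 and the THI5 family copies were chosen after their values were seen. Promoters were read from the R64 genome for 5844 placed genes and searched on both strands.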

Additional observations from a re-analysis of the deposited data

Results flagged for a closer look

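In 7 of 166 groups of 4 libraries checked, over 83 named genes, a library lay far from the other 3. Chance gives about 1 in 20 such groups. At 30 min, HOF1 had a highest library of 178 with the others at 98.4 to 110.0, ASE1 a highest of 700.5 with the others at 507 to 529, and SPO20 a lowest of 180.5 with the others at 256 to 264. At 20 min, HHT1 had a highest of 20344 with the others at 16117 to 16368, and DPB11 a highest of 22490.1 with the others at 20845 to 20992. RRT1 had a lowest of 32.4 at 20 min with the others at 48.9 to 50.6, and MRPS17, a mitochondrial ribosomal protein gene, a highest of 654 with the others at 499 to 512.

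The change in SSDDCS minus that in sml1Δ was past the limit for 18 named genes (limma, adjusted p of 7.66e-05 to 0.0091). STE3, YNR064C, YNR065C, FMP45, RRT1, RPI1, LOT5, SNG1, SOL2 and COQ9 were named for passing this same test with the largest differences. Their part of the 18 was therefore set by the selection and is not a separate result. The difference was positive for STE3 (1.42), YNR064C (1.34), YNR065C (1.27), FMP45 (1.26), RRT1 (1.23), THI12 (1.17), SPO20 (0.91), PHO8 (0.77) and HOP1 (0.71). Among the induced genes it was 1.16 for CDC45, 1.05 for SLD2, 0.51 for DPB11 and 0.45 for DBF4. It was negative for RPI1 (−0.87), LOT5 (−0.65), SNG1 (−0.55), SOL2 (−0.52) and COQ9 (−0.51).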

How the results depend on the processing

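The 1630 called genes stayed within 1.5 times their number under every scaling, filter, pseudocount and tool tried, and fewer with the settings that follow. Without the culture pairing (no replicate block) 1019 were called, 463 of them higher, and the difference between strains was called for 15 genes. Leaving out a replicate gave 979 to 1355 called genes, 473 to 651 higher and 506 to 704 lower. The limit of at least 2-fold, chosen after seeing the data, left 78 (46 higher, 32 lower). Equal totals gave 459 higher genes. The 121 genes that differed between strains became 258 with only the 16 libraries of both times, 183 by DESeq2 and 52 to 91 when a replicate was left out. Using sml1Δ replicates 1 and 4 alone gave 50 and 2 and 3 alone 63, both chosen after seeing the data. The causes were not tested. Changes of sign were found in 4 genes, none of them called: SLD2 was −0.0495 under equal totals and −0.0589 under quantile normalization, HTA1 −0.00429 under quantile normalization, DPB11 −0.0387 to 0.0104 and LOT5 −0.126 to 0.0060 when a replicate was left out. Of 83 named genes 64 were called for the SSDDCS change, and 39 of these kept their call under every alternative. For the difference between strains, each check took 1 gene under 1 alternative. The call was lost in 92 checks, gained in 1 and unchanged in 306. List medians moved beyond the spread between cultures in 18 of 58 checks. Depth limits low genes: those below a mean of 10 were not tested.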
